A study of Mus musculus with 36 samples.

Results

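The small leucine-rich proteoglycans are secreted proteins of the extracellular matrix, each built around a row of leucine-rich repeats. The 8 described here are Dcn (decorin), Bgn (biglycan), Aspn (asporin), Lum (lumican), Fmod (fibromodulin), Prelp (PRELP), Omd (osteomodulin, also called osteoadherin) and Ogn (osteoglycin). They were chosen by gene symbol, and not by a cut on their values, from 30205 genes measured, and each symbol matched 1 gene. Earlier results of these data were known at that choice.

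These proteins bind collagen and help to set how thick and how evenly spaced collagen fibrils become. Decorin and biglycan carry chondroitin or dermatan sulfate chains and are abundant in bone matrix, whereas lumican, fibromodulin and osteomodulin can carry keratan sulfate. Osteomodulin is made by mature osteoblasts and binds to mineral, and several members also bind growth factors of the TGF-β family.

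RNA was sequenced from primary cells of mouse long bones (age 20 weeks), either wild-type controls (WT) or Mir324-null mice (null), which lack the microRNA gene Mir324. Bone marrow macrophages (BMM) were grown from flushed marrow in M-CSF, a growth factor of macrophages, given at 100 ng/mL for 3 days and then at 30 ng/mL for 5 days. Cultures labelled osteoclasts (OC), the cells that resorb bone, received 50 ng/mL RANK-L beside the 30 ng/mL M-CSF in those 5 days. Osteoblasts (OB), the cells that form bone, grew out of collagenase-treated bone chips over about 6 weeks and then spent 18 days with 2 mM β-glycerophosphate and 50 µg/mL ascorbic acid, agents that let them lay down and mineralize matrix. There were 36 libraries, 6 per group. Strain, sex, the way the null allele was made and whether each library came from its own mouse are not given in the sources used here, so p-values measure the spread between these libraries.

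The libraries held 14118972 to 26347581 estimated counts, and marker genes were used to check the labels. Because the Mir324 hairpin was not analysed here, its own level gave no check of the genotypes. The 8 osteoclast markers summed to 31430 to 34430 CPM (counts scaled to a library total of 1000000) in WT OC but to 322 to 675 CPM in the libraries labelled null OC, and all 8 were lower there. Those 6 libraries carried macrophage markers at 46140 to 54750 CPM, beside 13260 to 15440 CPM in WT OC. Most of each sum was Lyz2, which averaged 38410 CPM in null OC and 8950 CPM in WT OC. Of the 8 macrophage markers 6 were higher in null OC, Cd68 was lower and Mrc1 did not pass the test, which 65.6% of all genes passed. The markers of the 6 libraries labelled null OC go against the name osteoclast, and null OC is used here only as a label. The osteoclast markers summed to 230 to 303 CPM in null BMM, below all 6 libraries labelled null OC. Whether genotype, culture or labelling lies behind these values was not tested. None of the 8 osteoblast markers was at 0 in the osteoblast cultures. Phex, however, averaged 0.31 CPM in WT OB and was lower there than in WT BMM, at 0.85 CPM. The osteoblast cultures also held macrophage markers, summing to 12870 to 16040 CPM in WT OB and 6678 to 10300 CPM in null OB. Most of these sums was Lyz2, which averaged 11200 CPM in WT OB and 6370 CPM in null OB.

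The members lie in 4 places of the mouse genome (GRCm38, GENCODE M21), 3 of which hold neighbours. Aspn (chr13:49544443-49567565), Omd (chr13:49582462-49592822) and Ogn (chr13:49608046-49624501) follow each other on the plus strand, with gaps of 14896 and 15223 bases. Dcn (chr10:97479609-97518143) and Lum (chr10:97565128-97572703) are 46984 bases apart on the plus strand of chromosome 10. Prelp (chr1:133910304-133921414, minus strand) and Fmod (chr1:134037254-134048277, plus strand) are 115839 bases apart and point away from each other. Bgn (chrX:73483602-73495933) stands alone on the X chromosome.

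A microRNA acts mainly through its seed, bases 2 to 8, which pairs with matching sites in the 3′ UTRs of messenger RNAs. The 2 mature strands of miR-324, from RefSeq (GRCm38.p6), are printed with the seed in capitals because the null mice lack them. They lie at chr11:70012060-70012082 and chr11:70012095-70012114 on the plus strand.
mmu-miR-324-5p: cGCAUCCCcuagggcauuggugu
mmu-miR-324-3p: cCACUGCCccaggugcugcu
The site for the 5p seed, GGGATGC, is in the longest annotated 3′ UTR of 7.39% of 21037 genes, and the site for the 3p seed, GGCAGTG, in 12.7%. Among the 8 members only Bgn has a match, for the 3p strand, starting at base 2 of its 3′ UTR. It is printed here with the match in capitals.
Bgn 3′ UTR, chrX:73494797-73494812, plus strand: aGGCAGTGgttgccac
No match to either seed is in the longest annotated 3′ UTR of Dcn, Lum, Fmod, Ogn, Omd, Aspn or Prelp, which range from 435 to 2302 bases. A match of letters is a description and not a tested target site.

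Promoters were available from RefSeq (GRCm38.p6) for Bgn, Fmod, Ogn, Omd, Aspn and Prelp. The 250 bases before the start are printed for the chromosome 13 neighbours, because Omd differed between genotypes while Aspn and Ogn did not pass the test, and for Prelp, which differed most among the members. The start is that of RefSeq. For Ogn the printed bases end at 49608014, short of the GENCODE start at 49608046. For Prelp they begin at 133921402 and so reach into the GENCODE gene, which ends at 133921414. Capitals mark the TATA box letters TATAAA and the core of the RUNX motif TGTGGT, searched on both strands, with adjoining TATA box matches running together.
Aspn, chr13:49544193-49544442, plus strand: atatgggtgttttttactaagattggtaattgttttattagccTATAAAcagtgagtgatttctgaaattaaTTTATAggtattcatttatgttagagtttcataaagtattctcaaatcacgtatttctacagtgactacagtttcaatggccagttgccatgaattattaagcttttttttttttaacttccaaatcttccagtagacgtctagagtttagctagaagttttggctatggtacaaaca
Omd, chr13:49582212-49582461, plus strand: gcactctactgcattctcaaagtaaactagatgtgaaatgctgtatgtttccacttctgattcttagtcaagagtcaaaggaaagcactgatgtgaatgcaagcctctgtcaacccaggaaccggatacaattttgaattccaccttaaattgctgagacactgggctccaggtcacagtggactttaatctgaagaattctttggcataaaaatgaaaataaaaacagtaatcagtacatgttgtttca
Ogn, chr13:49607765-49608014, plus strand: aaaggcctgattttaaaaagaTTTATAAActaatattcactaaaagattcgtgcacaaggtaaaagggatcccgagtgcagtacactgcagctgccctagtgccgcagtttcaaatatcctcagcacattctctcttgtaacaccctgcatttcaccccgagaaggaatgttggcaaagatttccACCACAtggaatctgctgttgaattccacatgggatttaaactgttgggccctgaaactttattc
Prelp, chr1:133921402-133921651, minus strand: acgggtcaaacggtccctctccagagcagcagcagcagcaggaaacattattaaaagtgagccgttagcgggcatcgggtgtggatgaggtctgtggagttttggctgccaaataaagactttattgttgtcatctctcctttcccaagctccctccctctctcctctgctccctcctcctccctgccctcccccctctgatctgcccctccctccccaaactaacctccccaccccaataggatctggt
Of 32851 promoter windows of 300 bases, 250 before and 50 after the start, 13.6% hold TATAAA and 16.8% hold TGTGGT on either strand. Aspn has 2 matches to TATAAA, beginning 207 and 178 bases before the start, and Ogn has 2, beginning 229 and 227 bases before it. Ogn also has the only RUNX core match among the 6, 65 bases before the start on the opposite strand, and no match to either motif is in the windows of Omd, Prelp, Bgn or Fmod. The chromosome 13 promoters are poor in G and C, at 31.0% for Aspn, 37.7% for Omd and 42.3% for Ogn, beside 55.3% for Prelp and a median of 52.7% over all windows.

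In osteoblasts the family was abundant in both genotypes. Levels between genes are compared here in TPM, which are scaled for transcript length and sum to 1000000 in each library. Lum was the highest member in WT OB at 1826 ± 369 TPM (SD, n = 6), followed by Dcn at 1351 ± 235 TPM, Bgn at 892 ± 57.2 TPM, Aspn at 797 ± 144 TPM and Fmod at 673 ± 175 TPM. Ogn was at 256 ± 65.5 TPM, Prelp at 132 ± 35.8 TPM and Omd at 127 ± 26.9 TPM. Neighbours in this order overlapped between libraries, except that every Dcn value was above every Bgn value and every Fmod value above every Ogn value.

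The order of the means was the same in null OB, where Lum was at 1587 ± 289 TPM, Dcn at 1344 ± 197 TPM and Bgn at 1104 ± 101 TPM. Prelp, at 284 ± 41.2 TPM, lay beside Ogn at 287 ± 40.3 TPM there, and all its values were above those of Omd at 87.6 ± 14.5 TPM. The 8 members together made up 6054 ± 792 TPM in WT OB and 6363 ± 608 TPM in null OB, sums whose ranges overlapped (4886 to 7081 TPM and 5751 to 7315 TPM). Within that sum the share of Prelp was 1.6% to 3.5% in WT OB and 3.64% to 5.53% in null OB, 2 ranges that did not overlap. The share of Omd was 1.55% to 2.58% in WT OB and 1.23% to 1.56% in null OB.

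**Figure D1:**
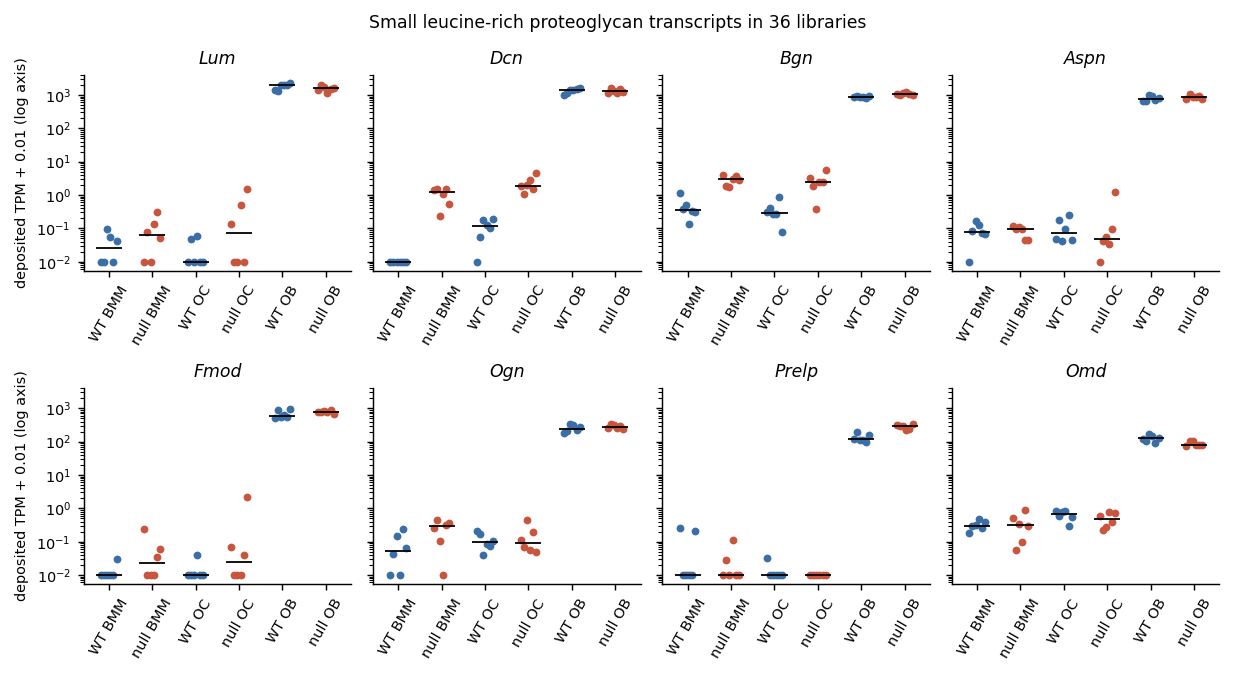
Deposited TPM of each member, plus 0.01 so that a value of 0 can be drawn, on a log axis in the 6 groups (blue, WT; red, null; points are libraries, lines are medians). All 8 members sit far higher in the osteoblast groups, and the traces of Dcn and Bgn are higher in null BMM and null OC than in WT BMM and WT OC.

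Genotype was then compared in osteoblasts, the comparison that asks how loss of miR-324 goes with the matrix made by bone-forming cells. Counts were summed per gene, scaled by TMM (a factor per library that keeps most genes level) and tested with edgeR's quasi-likelihood F test, with Benjamini-Hochberg adjustment over all 13607 genes tested and a threshold of 0.05. All 8 members entered the test. Prelp rose and Omd fell in null OB, so 2 of 8 members were called, against 32.5% of all genes tested. In each direction 1 of 8 was called, beside 15.5% of genes higher and 16.9% lower. This balance depends on the scale: 2115 genes were higher and 2305 lower here, but limma on deposited TPM gave 3946 higher and 944 lower of 13831 genes, with 2 members higher and 1 lower. The median log2 fold change of the members was -0.03, and that of all genes 0.00.

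Prelp encodes a basic protein that ties basement membranes to the collagen beneath them through its heparin-binding end. It ranged from 202 to 361 CPM in WT OB, with a median of 247, and from 413 to 619 CPM in null OB, with a median of 555. Every null library was above every WT library. The mean rose from 268 ± 58.3 CPM to 525 ± 86.7 CPM (SD, n = 6 each), a log2 fold change of 0.97 (SE 0.14, edgeR adjusted p = 0.00021). The groups did not overlap, in either direction, for 15.4% of the genes tested.

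Omd ranged from 88.8 to 159 CPM in WT OB, with a median of 120, and from 60.6 to 90.8 CPM in null OB, with a median of 68.3. The ranges overlapped by 1 WT library, replicate 5, and the other 5 WT libraries were above all null libraries. The mean fell from 122 ± 25.1 CPM to 73.8 ± 12.5 CPM, a log2 fold change of -0.72 (SE 0.15, edgeR adjusted p = 0.00232). Its depth was 1205 to 2685 counts per library, the least of the 8 members, and that of Prelp 3557 to 14507 counts.

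Lum, the keratan sulfate member that also shapes the fibrils of the cornea, was at 1710 to 2857 CPM in WT OB (median 2633) and 1365 to 2381 CPM in null OB (median 1824). The groups overlapped, with WT replicates 1 and 2 inside the null range and the other 4 above it. The means were 2409 ± 470 CPM and 1849 ± 350 CPM, and the log2 fold change of -0.39 (SE 0.15) did not pass the threshold (edgeR adjusted p = 0.0721). DESeq2 placed it past the threshold (adjusted p = 0.0438), as did edgeR without WT OB replicate 1, without WT OB replicate 2 or without null OB replicate 2.

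Dcn, its neighbour, ranged from 1183 to 1885 CPM in WT OB (median 1697) and from 1195 to 1755 CPM in null OB (median 1365). These ranges overlapped over most of their length. The log2 fold change was -0.19 (SE 0.13, edgeR adjusted p = 0.282). The transcript Dcn-201 held 92.1% ± 0.91 of the gene's estimated counts in WT OB and 90.1% ± 1.86 in null OB.

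Bgn, the X-linked relative of decorin, was the member that varied least between WT libraries, from 1249 to 1478 CPM (median 1398), beside 1377 to 1712 CPM in null OB (median 1472). The groups overlapped in CPM, and the log2 fold change was 0.12 (SE 0.07, edgeR adjusted p = 0.169). On the TPM scale Bgn ranged from 799 to 956 in WT OB and from 991 to 1268 in null OB, without overlap. There limma on log2(TPM + 1) gave a log2 difference of 0.30 (SE 0.06, adjusted p = 0.00245), but on that scale the median of all genes was 0.14 in place of 0.00 and that of the members 0.17 in place of -0.03.

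Fmod, Ogn and Aspn had nearly the same means in both genotypes. Fmod, which guides collagen cross-linking, was at 1092 to 1855 CPM in WT OB (median 1212) and 1263 to 1564 CPM in null OB (median 1432), with a log2 fold change of 0.04 (SE 0.14, edgeR adjusted p = 0.855). Its WT replicates 2 and 6, at 1775 and 1855 CPM, were above all null libraries and the other 4 WT libraries were at or under 1273 CPM. Ogn was at 295 to 562 CPM (median 400) against 362 to 509 CPM (median 396), with a log2 fold change of -0.02 (SE 0.16, edgeR adjusted p = 0.948). Aspn, which competes with decorin for collagen, was at 1001 to 1471 CPM (median 1140) against 999 to 1437 CPM (median 1189), with a log2 fold change of -0.03 (SE 0.13, edgeR adjusted p = 0.875). For these 3 genes the null range lay within or almost within the WT range. The signs of these 3 and of Dcn turned under other scalings, so no direction is given for them.

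**Figure D2:**
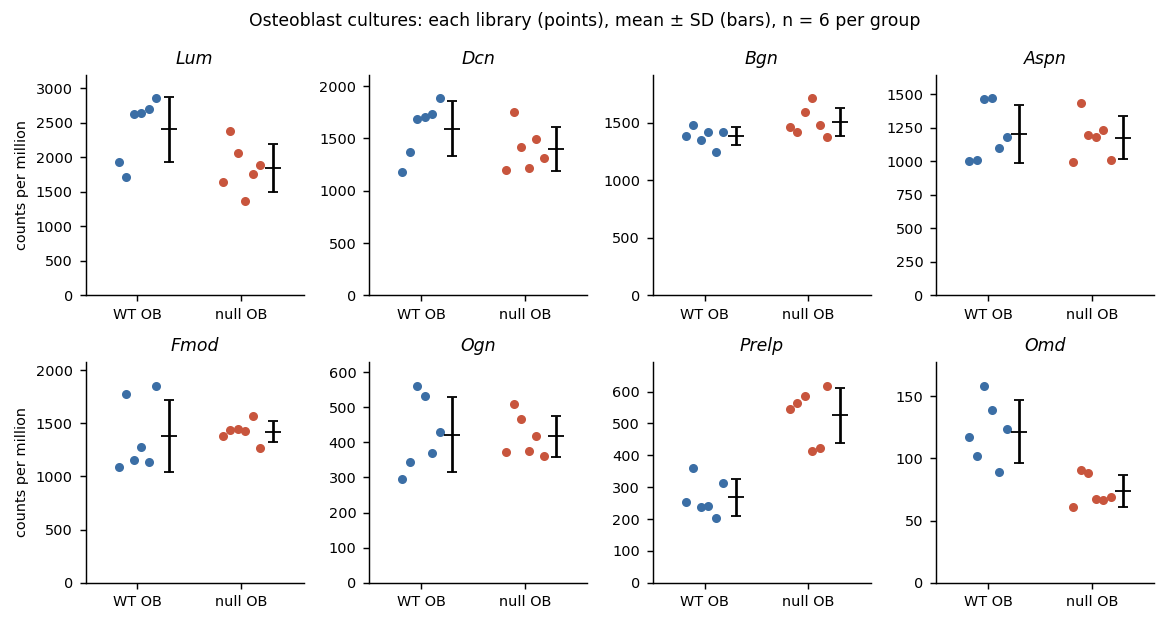
CPM of each member in the 12 osteoblast libraries (blue, WT OB; red, null OB), with the mean and SD of 6 libraries beside each set of points. Prelp is higher in all null libraries (413 to 619 CPM) than in any WT library (202 to 361 CPM), Omd is lower with an overlap of 1 WT library, and the other 6 members overlap more widely.

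Fold changes in osteoblasts went with transcript length across all genes tested (Spearman's rho 0.55 over 13607 genes, which are not independent), and Prelp is the longest member at 3150 bases and Omd the shortest at 1556 bases. With an offset in the fit for the trends of every library with transcript length and GC, that rho was 0.01 and 2182 genes were called (16%) in place of 4420. Prelp then had a log2 fold change of 0.89 (SE 0.13, edgeR adjusted p = 0.00052) and Omd one of -0.55 (SE 0.12, edgeR adjusted p = 0.00891). Fmod, at 3118 bases nearly as long as Prelp, had -0.03 (SE 0.14) under that offset and Dcn, at 1877 bases, -0.10 (SE 0.13). Both calls also held in all 23 alternatives run, with adjusted p between 1.25e-10 and 0.000865 for Prelp and between 1.69e-05 and 0.0127 for Omd.

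**Figure D3:**
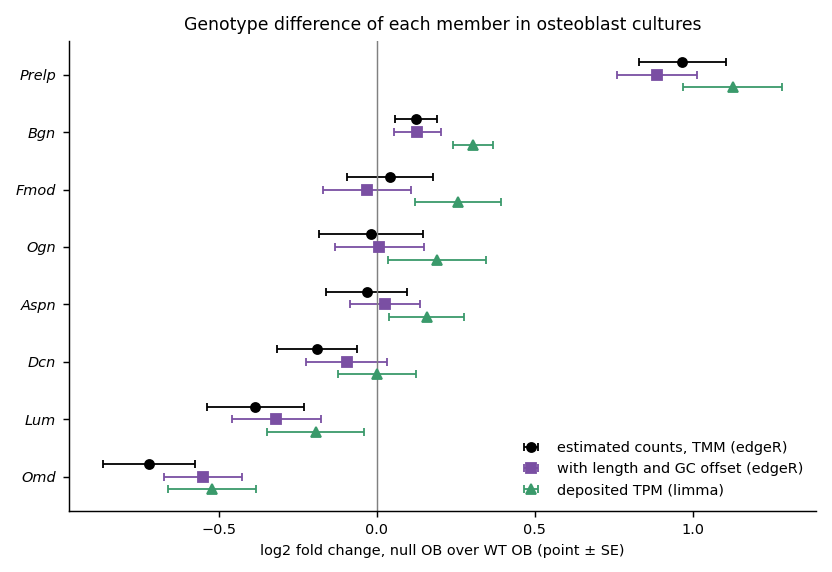
Log2 fold change of each member in null OB over WT OB, with its SE, from counts scaled by TMM (black circles), with the length and GC offset (purple squares) and from deposited TPM (green triangles). Prelp lies between 0.89 and 1.13 and Omd between -0.72 and -0.52, while Fmod, Ogn and Aspn lie on either side of 0.

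Markers of other cells moved with genotype in the same cultures. The counts of markers are from the fit without the length and GC offset, in which 15.5% of genes were higher and 16.9% lower. They were not made with the offset, and the part of transcript length in them was not tested. Of 8 osteoblast markers 5 were higher in null OB (Runx2, Col1a1, Ibsp, Dmp1 and Phex), and the list summed to 45080 to 63960 CPM in WT OB and 79830 to 96660 CPM in null OB. Of 8 macrophage markers 6 were lower, while Csf1r and Itgam were not called. Of 6 chondrocyte markers 4 were higher and 1 lower, and the list summed to 434 to 904 CPM in WT OB and 1069 to 2741 CPM in null OB. Of 6 fibroblast and tendon markers 1 was higher and 1 lower, summing to 281 to 570 CPM in WT OB and 466 to 635 CPM in null OB. Of 8 osteoclast markers 3 were higher (Ctsk, Mmp9 and Atp6v0d2), and the list summed to 3927 to 5082 CPM in WT OB and 4773 to 7245 CPM in null OB. Of 6 adipocyte markers 2 were tested and both were lower (Pparg and Fabp4), with median sums of 16.8 CPM in WT OB and 11.1 CPM in null OB. Plin1, Cidec and Lep were at 0 in both groups, and Adipoq averaged 0.08 CPM in WT OB. Pparg and Fabp4 averaged 3.02 and 13.4 CPM in WT OB and 10.2 and 10.5 CPM in WT BMM, so they do not mark adipocytes alone here. Of 4 endothelial markers 2 were tested and neither was called, with median sums of 139 CPM in WT OB and 106 CPM in null OB. In bulk RNA, fewer cells of a type and less RNA per cell cannot be told apart, and the part of these cell types in the values of Prelp and Omd was not tested.

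Other genes that work with these proteins were taken from 7 lists. Of all 13607 genes tested, 15.5% were higher and 16.9% lower without the offset. With the offset 1054 were higher and 1128 lower. All 12 fibrillar and type VI collagen genes, whose products the members bind, were higher in null OB (median log2 fold change 0.72). With the length and GC offset 10 of 12 were called and the median was 0.44. Col1a1, the main collagen chain of bone, was at 36640 ± 6165 CPM in WT OB and 65000 ± 3947 CPM in null OB (log2 fold change 0.83, edgeR adjusted p = 5.56e-05), and its log2 fold change was 0.52 with the offset (adjusted p = 0.00257). Col6a3, a chain of the beaded filaments around cells, went from 234 ± 22.7 to 512 ± 28.2 CPM (log2 fold change 1.13, edgeR adjusted p = 1.01e-07). The median over the members was -0.03, and -0.01 with the offset.

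Of 15 genes for collagen propeptide processing and cross-linking, 6 were higher and none lower, beside 15.5% and 16.9% of all genes. With the offset 2 were higher, beside 1054 of all 13607 genes. Bmp1, the protease that trims procollagen and also the biglycan precursor, was at 73.5 ± 10.8 CPM in WT OB and 114 ± 16.8 CPM in null OB (log2 fold change 0.63, edgeR adjusted p = 0.000779). Loxl4, a cross-linking oxidase, had a log2 fold change of 0.67 (edgeR adjusted p = 0.000118).

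The glycan chains of the members are made by enzymes of the Golgi. Of 22 genes for chondroitin and dermatan sulfate assembly, 3 were higher and 1 lower (median 0.11), beside 15.5% and 16.9% of all genes. The called genes included Chst15 (0.55) and Chst11 (0.53), both sulfotransferases, and B4galt7 (-0.23), which builds the linker to the protein. With the offset 1 gene of the list was higher and 1 lower, and none of these 3 passed the threshold. Chst15 was then at 0.32 (edgeR adjusted p = 0.178), Chst11 at 0.26 (adjusted p = 0.385) and B4galt7 at -0.20 (adjusted p = 0.0884). Of 12 genes for keratan sulfate, tyrosine sulfation and sulfate supply, 10 were tested, 3 higher and 1 lower (15.5% and 16.9% of all genes). The sulfate transporter Slc26a2 was at 45.6 ± 8.52 CPM in WT OB and 84.9 ± 9.90 CPM in null OB (log2 fold change 0.89, edgeR adjusted p = 5.56e-05). Papss2, which makes the sulfate donor, had a log2 fold change of 0.39 (edgeR adjusted p = 0.0011), and Tpst1, which sulfates tyrosines such as those of fibromodulin and osteomodulin, one of -0.71 (edgeR adjusted p = 0.0186). With the offset Tpst1 was at -0.66, with an adjusted p of 0.0528.

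A list of 10 further members or near relatives of the family gave 1 call among 9 tested (32.5% of all genes called). It was Ecm2, at 13.3 ± 2.60 CPM in WT OB and 17.4 ± 2.75 CPM in null OB (log2 fold change 0.39, edgeR adjusted p = 0.0406), and it was not called with the offset (0.28, adjusted p = 0.202). Podnl1, the highest of these relatives, was at 63.8 ± 3.08 and 71.3 ± 9.58 CPM. Of 8 proteases that cut the members, 7 were tested. Adamts4 was higher (0.53, edgeR adjusted p = 0.0374) and Mmp3 lower (-0.75, edgeR adjusted p = 0.0306), beside 15.5% and 16.9% of all genes. With the offset neither passed the threshold, Adamts4 at 0.34 (adjusted p = 0.246) and Mmp3 at -0.63 (adjusted p = 0.109).

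Of 13 signalling partners, 3 were higher and 2 lower, beside 15.5% and 16.9% of all genes. With the offset 2 were higher and 4 lower, beside 1054 and 1128 of all 13607 genes. Lrp1, an endocytic receptor that takes up decorin, was at 249 ± 29.8 CPM in WT OB and 415 ± 27.1 CPM in null OB (log2 fold change 0.73, edgeR adjusted p = 1.27e-05). Tgfb2, a ligand of the family that decorin and biglycan bind, had a log2 fold change of 0.54 (edgeR adjusted p = 0.000154). Tlr2, a receptor for free biglycan, had one of -0.44 (edgeR adjusted p = 0.00257), and Cd14, a co-receptor of macrophages, one of -0.23 (edgeR adjusted p = 0.032), which was -0.11 with the offset (adjusted p = 0.408). Of 8 macrophage markers 6 were lower in the same libraries without the offset. The part of macrophages in the values of Tlr2 and Cd14 was not tested.

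Members on the same chromosome were compared library by library within each genotype. Aspn and Ogn, the outer genes of the chromosome 13 group, had a Pearson r of 0.973 over the 6 WT OB libraries (exact permutation p = 0.00556, Benjamini-Hochberg adjusted p = 0.311 over 56 relations, Spearman's rho 0.943, exact permutation p = 0.0167). In null OB r was 0.857 (exact permutation p = 0.0278, rho 0.886, exact permutation p = 0.0333). Without the 2 libraries farthest from the median of 1 gene of the pair, here Ogn, r was 0.987 and 0.783. That gene was Omd for Omd with Aspn and Ogn for Omd with Ogn. It was Dcn for Dcn with Lum and Fmod for Fmod with Prelp. Leaving these libraries out narrows the range of that gene, so a lower r is not read further. Omd, which lies between them, had r = 0.787 with Aspn in WT OB (exact permutation p = 0.075; rho = 0.714, p = 0.136) and 0.712 in null OB (exact permutation p = 0.136; rho = 0.6, p = 0.242), or 0.891 and 0.333 without the 2 farthest libraries. With Ogn it had r = 0.742 in WT OB (exact permutation p = 0.0944, rho 0.771, exact permutation p = 0.103). In null OB r was 0.889 for Omd with Ogn (exact permutation p = 0.075, rho 0.6, exact permutation p = 0.242). Without the 2 farthest libraries these were 0.882 and -0.032. Dcn and Lum had r = 0.897 in WT OB (exact permutation p = 0.0694, rho 0.943, exact permutation p = 0.0167) and 0.826 in null OB (exact permutation p = 0.0417, rho 0.771, exact permutation p = 0.103). Without the 2 farthest libraries these were 0.998 and 0.669. Fmod and Prelp, the pair that point away from each other, had r = 0.873 in WT OB (exact permutation p = 0.0889; rho = 0.6, p = 0.242) and -0.663 in null OB (exact permutation p = 0.131; rho = -0.314, p = 0.564). Without the 2 libraries farthest from the median of Fmod these were 0.024 and 0.042. Such values were not particular to neighbours. On different chromosomes, Dcn had r = 0.878 with Ogn and 0.848 with Aspn in null OB, and 0.718 and 0.618 in WT OB. Bgn with Prelp had r = 0.876 in WT OB and -0.594 in null OB. None of the 56 relations had an adjusted p under 0.05.

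**Figure D4:**
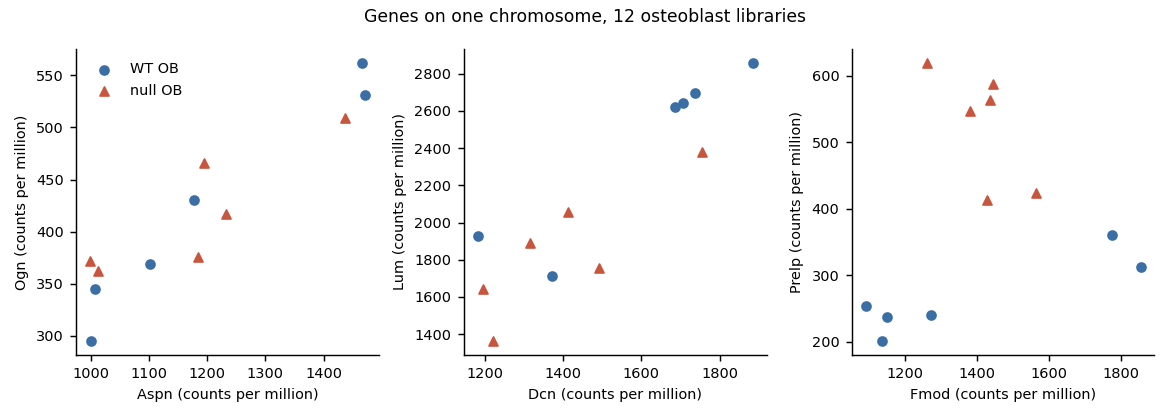
CPM of pairs of members on the same chromosome in the 12 osteoblast libraries (blue circles, WT OB; red triangles, null OB). Aspn with Ogn and Dcn with Lum lie along a rising line in both genotypes, while every null value of Prelp (413 to 619 CPM) is above every WT value (202 to 361 CPM).

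Across all 12 osteoblast libraries, the genes with the pattern most like each member were found by Pearson's r of log2 CPM among 9186 genes whose mean reached 10 CPM. For Prelp they were Mybbp1a (0.977), Mcm3ap (0.976) and Cad (0.966), and for Omd Gstm5 (0.957), Eef1akmt2 (0.937) and Tmem237 (0.930). Other members were among the nearest genes in 3 cases, Lum for Dcn (0.880), Aspn for Ogn (0.931) and Ogn for Aspn (0.931). Igf1 (0.917) and Mgp (0.914) were near Lum and Sparc (0.900) nearest to Fmod. These values describe 12 libraries that share a culture and include the difference between genotypes. They were made without the length and GC offset, and the part of transcript length in them was not tested.

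In cells of the marrow the members were at traces. All 8 were called higher in WT OB than in WT BMM (edgeR; 76.8% of genes called, 41.5% higher) and in null OB than in null BMM (76% called, 40.8% higher). Dcn had 0 counts in all 6 WT BMM libraries, which puts it at least 10400-fold higher in WT OB, with 3 counts per library as the limit. Prelp had 0 counts in all 6 null OC libraries and was at least 3180-fold higher in null OB by the same limit. Between WT OC and WT BMM edgeR called 0 of 8 members, with 2 at an unadjusted p under 0.05 (56.2% of genes called). DESeq2 called Dcn, Omd and Prelp, 3 of 8 (57.2% of genes), and voom called Dcn, 1 of 8 (65.8% of genes).

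Traces of Dcn and Bgn were higher in the null marrow cultures. Bgn was at 0.06 to 0.87 CPM in WT BMM (median 0.47) and 2.29 to 6.02 CPM in null BMM (median 4.37), without overlap, a log2 fold change of 3.14 (SE 0.36, edgeR adjusted p = 2.26e-06). It was the only member to pass the filter on low counts (52.3% of genes called), and did so only through the null group, so its count supports nothing. Without that filter its adjusted p was 2.72e-07. Dcn, at 0 in WT BMM, was at 0.29 to 2.03 CPM in null BMM (median 1.55), 5 to 40 counts per library, and its mean was at least 8.62-fold above the limit of 3 counts per library. Without the filter on low counts edgeR called it too (adjusted p = 1.89e-06).

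In OC cultures 3 members passed the filter, Dcn and Bgn only through the null group, so that their 2 calls support nothing as a count (65.6% of genes called). Dcn was at 0 to 0.21 CPM in WT OC (median 0.12) and 1.29 to 5.79 CPM in null OC (median 2.25), a log2 fold change of 4.67 (SE 0.50, edgeR adjusted p = 3.86e-07). Bgn was at 0.10 to 0.64 CPM (median 0.26) and 0.48 to 8.37 CPM (median 3.30), with a slight overlap and a log2 fold change of 3.78 (SE 0.55, edgeR adjusted p = 1.4e-05). Omd, at 0.27 to 0.78 CPM in WT OC and 0.20 to 0.77 CPM in null OC, did not pass the test (log2 fold change -0.13, SE 0.38, edgeR adjusted p = 0.781). Without the filter the adjusted p was 6.18e-08 for Dcn and 1.93e-05 for Bgn.

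Col1a1 moved with these traces, but not all of the osteoblast markers tested did. The 8 markers summed to 9.96 to 25.6 CPM in WT BMM, 37.6 to 105 CPM in null BMM, 14.4 to 16.5 CPM in WT OC and 48.5 to 214 CPM in null OC. Most of each sum was Col1a1, at 14.9 ± 6.03, 61.3 ± 30.4, 8.82 ± 0.895 and 80.8 ± 46.3 CPM (SD, n = 6) in that order, and 5 or 6 of the 8 were below 1 CPM in each group. Of 3 markers tested, Col1a1 and Runx2 were higher and Phex lower in null BMM (log2 fold changes 2.05, 0.47 and -0.94), and in null OC only Col1a1 was higher (3.37), with Runx2 at -0.24 and Phex at -0.65. Alpl was at 0 in WT BMM and WT OC, Sp7 at 0 in WT BMM and null OC, and Bglap at 0 in null OC. Null OC replicate 6 had the highest sum, 214 CPM beside 48.5 to 77.9 CPM in the other 5, and also the highest Dcn (5.79 CPM), Bgn (8.37 CPM), Fmod (4.72 CPM), Lum (2.07 CPM) and Aspn (2.00 CPM) of its group. Without that library the log2 fold changes in OC were 4.34 for Dcn (SE 0.43) and 3.40 for Bgn (SE 0.49). Some other collagen genes were higher in the null marrow cultures too. Col1a2 averaged 1.57, 15.9, 0.24 and 16.6 CPM in WT BMM, null BMM, WT OC and null OC, and Col3a1 0.79, 4.99, 0.11 and 7.30 CPM. Col11a2 was not called in either culture. Fibroblast and tendon markers summed to at most 0.72 CPM in any marrow library. The part of cells other than macrophages in the traces of Dcn and Bgn was not tested.

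**Figure D5:**
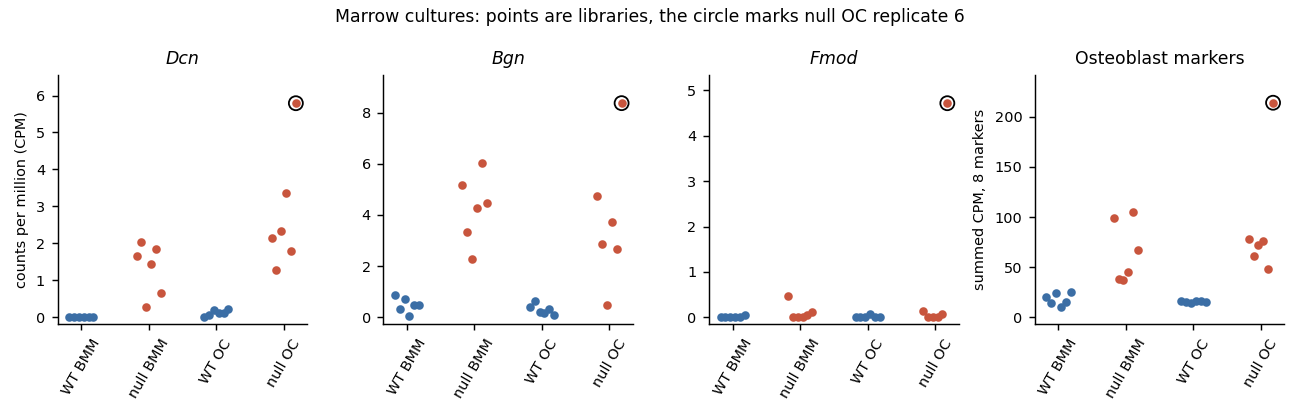
CPM of Dcn, Bgn and Fmod and the summed CPM of 8 osteoblast markers in the marrow cultures (blue, WT; red, null; points are libraries). Dcn, Bgn and the marker sum, which is mostly Col1a1, are higher in the null groups, and the circled null OC replicate 6 has the highest value in each panel.

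The genotype difference itself was tested for a difference between cultures in 1 fit of all 36 libraries. For OB minus BMM, 2 of 8 members were called (45.9% of genes), Bgn at -3.01 (SE 0.45, edgeR adjusted p = 1.5e-06) and Dcn at -7.94 (SE 1.10, edgeR adjusted p = 9.82e-07), on the log2 scale. The Dcn value depends on a group with 0 counts and is no bound. For OB minus OC, 4 of 8 were called (55.2% of genes), Bgn at -3.63 (SE 0.50), Dcn at -4.81 (SE 0.57), Lum at -4.73 (SE 1.22) and Fmod at -5.46 (SE 1.72, edgeR adjusted p = 0.00754). Without null OC replicate 6 Fmod was at -1.67 (SE 1.5, edgeR adjusted p = 0.358) and Lum at -3.72 (SE 1.22, edgeR adjusted p = 0.00988). Voom with quality weights called neither Fmod nor Lum. For Prelp the difference between cultures was 1.25 (SE 1.10, edgeR adjusted p = 0.375) against BMM and 2.17 (SE 2.31, edgeR adjusted p = 0.443) against OC, since it was at 0 to 6 counts in every marrow library.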

How the data were processed

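RNA-seq libraries of 6 groups with 6 libraries each were grouped by the genotype and cell type in the labels. Kallisto, DESeq2 and the build GRCh38 are named, without versions or roles, per the submitters' processing notes; the transcript identifiers are mouse Ensembl. The authors deposited estimated counts per transcript, which need not be whole, with lengths and effective lengths, per the file headers. The authors deposited TPM values in the same tables, which sum to 1000000 per library and carry no depth.

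Of 88198 transcripts, 97.5% were matched by identifier to GENCODE M21 (GRCm38). The unmatched held 0.629% to 0.974% of a library's counts and were left out. Counts and TPM were summed per gene, and counts rounded. CPM are scaled to 1000000 matched counts. After filterByExpr and TMM scaling, genes were tested with edgeR 4.0.16 (quasi-likelihood F test, robust dispersions, R 4.3.3); the SE was derived from F. Genotype was tested on the 12 libraries of a culture, contrasts across cultures on all 36. Alternatives were DESeq2 1.42.0, scaling by RLE, other filters (none, or a mean of 10 counts), voom quality weights (limma 3.58.1), a replicate block, 1 fit of all 36 libraries, offsets for transcript length and for length and GC content (lowess span 0.3), and leaving out each library. After seeing the data, limma on log2(TPM + 1), for genes with a mean TPM of at least 0.5, was added.

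Beside the members, the named genes were the up to 2 higher and 2 lower genes of each list with the smallest p in osteoblasts (mean of at least 1 CPM), and the 3 genes most like each member. Members and lists were chosen with earlier results of these data known. A value of 0 is limited at 3 counts per library, which covers counting error only. The closest replicates differed by more than sampling noise (chi-square per gene at least 3.46). The fits were tested on simulated data.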

Additional observations from a re-analysis of the deposited data

Results flagged for a closer look

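In 6 of 40 sets of 6 libraries checked, each set being the CPM of a member in a group, 1 library lay far from the others; chance flags about 1 in 20. Null OC replicate 6 was far above the other 5 in Lum (2.07 CPM), Fmod (4.72 CPM) and Aspn (2.00 CPM), and its osteoblast markers summed to 214 CPM. Ogn in null OC was far higher in replicate 3 (0.759 CPM), Fmod in null BMM in replicate 1 (0.479 CPM) and Prelp in null BMM in replicate 4 (0.279 CPM), each from at most 11 counts.

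The genotype difference itself differed between cultures, by edgeR's test of the interaction on the log2 scale, for Bgn (-3.01) and Dcn (-7.94) in OB minus BMM. It differed in OB minus OC for Bgn (-3.63), Dcn (-4.81), Fmod (-5.46) and Lum (-4.73), and the value of Fmod was -1.67 without null OC replicate 6.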

How the results depend on the processing

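The calls of Prelp and Omd in osteoblasts held in all 23 alternatives run, with log2 fold changes of 0.89 to 1.13 for Prelp and -0.80 to -0.52 for Omd. The count of genes called there was 4420, and 4085 with a replicate block, 2182 with the length and GC offset and 1831 with that offset and the block; leaving out 1 library gave 3796 to 4355. Same-numbered libraries showed little shared deviation (correlations of -0.119 to 0.149 in osteoblasts, 2 of 6 highest with their own number). Such values cannot exclude a pairing with a small effect, and the labels do not say whether numbers pair libraries. With the block Prelp was at 0.98 and Omd at -0.72.

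The cause of the following differences was not tested, beyond the fewer or more genes that a filter leaves. Percentages here are the shares of all genes called under a setting. Members called in null against WT BMM (1 of 1 tested) were 2 of 8 without the filter (33%) and 2 of 2 with a mean of 10 counts (52.4%). They were 2 of 2 with limma on TPM (50.5%) and 3 of 8 in 1 fit of all 36 libraries (49.4%). With a library left out they were 1 to 2 (48.1% to 52.7%). In null against WT OC (2 of 3 tested) they were 4 of 8 without the filter (43.6%) and 4 of 8 in 1 fit (61.7%). In WT OC against WT BMM (0 of 8) they were 3 with DESeq2 (57.2%), 1 with voom (65.8%) and 0 to 1 with a library left out (53.8% to 55.2%). For OB minus BMM (2 of 8) they were 4 with DESeq2 (47.2%). With a library left out they were 2 to 4, and 4 without null BMM replicate 4 (43.4%). For OB minus OC (4 of 8) they were 2 with voom (57.6%). Members with small differences in osteoblasts changed sign. Dcn was at 0.0006 with limma on TPM. Fmod was at -0.0318 with the length and GC offset and -0.0094 with the block added, and at -0.0213 to 0.145 with a library left out. Ogn was at 0.0049 with the block, 0.0018 with the length offset, 0.0079 with length and GC, 0.0272 with the block added, 0.1909 with limma on TPM and -0.1065 to 0.0792 with a library left out. Aspn was at 0.0245, 0.0225 and 0.1571 under the last 3 of those settings and at -0.0934 to 0.0355 with a library left out. Omd in OC was at 0.2575 with length and GC, 0.1907 with the block added and -0.335 to 0.0428 with a library left out. Depth limits the marrow cultures, where most members had under 20 counts per library.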
